A study of Mus musculus with 11 samples.

Results

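The Zscan4 genes are a cluster of close copies on mouse chromosome 7. The members were the rows of the deposited expression table named Zscan4a to Zscan4f. Of the 6 names, 5 had a row (Zscan4a, Zscan4b, Zscan4c, Zscan4d and Zscan4f) among 24016 genes, and Zscan4e was not analysed here. All 5 rows reached 1 RPKM (reads per kilobase of transcript per M mapped reads) in at least 1 library, which was the filter on low values. Each row was followed through 11 libraries of polyA RNA, and the rows were also summed.

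The libraries came from mouse embryonic stem (ES) cells labelled J1, strain 129S4/SvJae, that were kept in serum and LIF on a layer of irradiated embryonic fibroblasts. The WT line was unmodified J1. By their labels, TKO cells lacked Dnmt1, Dnmt3a and Dnmt3b, and DKO cells lacked Dnmt3a and Dnmt3b and kept Dnmt1. A single enzyme had been returned to TKO or to DKO cells in 6 add-back lines: the long isoform Dnmt3a1, the short isoform Dnmt3a2, or Dnmt3b1. There were 2 libraries of TKO+Dnmt3a1, 2 of TKO+Dnmt3a2 and 1 of each of the other 7 groups. The labels do not say how an enzyme was expressed, whether a line was 1 clone, or whether replicate libraries were grown separately. Each genotype stood as 1 line, so that a difference between lines and a difference between genotypes cannot be told apart.

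Zscan4 proteins carry a SCAN domain and zinc fingers and are made in the mouse embryo at the 2-cell stage. In ES cell cultures they appear in rare cells that pass for a short time through a 2-cell-like state, together with other transcripts of that stage, and these episodes are tied to telomere lengthening by recombination and to a passing loss of DNA methylation. The transcription factor Dux activates this program. In a bulk library, fewer cells in that state and less Zscan4 RNA in each such cell cannot be told apart.

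RefSeq annotation (GRCm38.p6) holds 9 Zscan4 genes in this cluster, in the order Zscan4a, Zscan4b, Zscan4c, Zscan4-ps1, Zscan4d, Zscan4e, Zscan4f, Zscan4-ps2 and Zscan4-ps3. Zscan4b, Zscan4c, Zscan4d and Zscan4f are annotated there as protein coding, Zscan4a as a transcribed pseudogene and the other 4 as pseudogenes. Zscan4c is the copy best known from ES cells and Zscan4d the copy best known from the embryo. The copies share much of their sequence, so that reads cannot always be given to 1 row. Of the 50-base stretches of the Zscan4f transcript, 93.7% also occurred in another Zscan4 transcript, and the closest was Zscan4-ps2 at 84.7%. The shares were 87.9% for Zscan4b (84.6% in Zscan4e), 85.5% for Zscan4c, 63.6% for Zscan4a and 49.6% for Zscan4d, the most distinct of the 5 rows. How the authors treated reads that match several copies is not given in the sources used here, which makes the value of a single copy uncertain, and the sum was read beside it.

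Promoter sequence was found for 4 of the 6 names, and 3 are shown because these lines differ in the enzymes that methylate CpG dinucleotides and because the members moved together. Each runs 5′ to 3′ from 250 bases before to 50 bases after the RefSeq start, with CpG dinucleotides in capitals. They lie at chr7:10905001-10905300 on the minus strand (Zscan4b), chr7:11005495-11005794 on the plus strand (Zscan4c) and chr7:11166099-11166398 on the minus strand (Zscan4d) of GRCm38.p6, while the expression values were made on build mm9.
Zscan4b: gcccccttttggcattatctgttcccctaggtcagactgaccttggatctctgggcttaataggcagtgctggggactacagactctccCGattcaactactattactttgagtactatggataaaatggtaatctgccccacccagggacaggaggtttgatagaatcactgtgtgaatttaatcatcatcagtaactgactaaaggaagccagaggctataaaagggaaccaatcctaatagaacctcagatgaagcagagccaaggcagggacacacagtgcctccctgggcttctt
Zscan4c: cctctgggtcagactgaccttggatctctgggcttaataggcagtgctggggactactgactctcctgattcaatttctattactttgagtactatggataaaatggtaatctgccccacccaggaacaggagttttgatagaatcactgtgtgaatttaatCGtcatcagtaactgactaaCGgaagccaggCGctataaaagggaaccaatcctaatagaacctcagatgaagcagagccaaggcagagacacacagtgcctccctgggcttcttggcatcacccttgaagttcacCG
Zscan4d: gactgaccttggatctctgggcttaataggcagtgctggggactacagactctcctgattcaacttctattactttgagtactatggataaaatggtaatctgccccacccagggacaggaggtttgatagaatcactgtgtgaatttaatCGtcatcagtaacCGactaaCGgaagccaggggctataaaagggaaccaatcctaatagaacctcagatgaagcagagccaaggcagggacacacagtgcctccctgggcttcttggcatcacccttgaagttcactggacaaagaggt
Zscan4b held 1 CpG, Zscan4c 4 and Zscan4d 3. Zscan4f (chr7:11397665-11397964, plus strand) also held 3 and matched Zscan4c at 275 of 277 aligned bases (99.3%). Over all 6 pairs of these promoters, identity was 95.3% to 99.3%. The 32851 RefSeq promoters of the same length had a median of 7 CpGs (quartiles 3 and 20), and 14.1% of them had as few as Zscan4b and 38.0% as few as or fewer than Zscan4c. These are CpG-poor to middling windows with 46.3% to 47.7% G and C. The TATA motif TATAAA, searched on both strands, stood in all 4 windows and in 13.6% of all promoters. TGATTNAAT, the core of the sequence bound by Dux, stood in the windows of Zscan4b, Zscan4c and Zscan4f and not in that of Zscan4d, against 0.7% of all promoters. TGCACAC, the motif bound by Zscan4 itself, stood in none of the 4 and in 4.4% of all promoters. The libraries held no measure of methylation at these sites.

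Read depth, inferred from the steps between low RPKM values, was 21.8 to 32.9 M reads per library. All 10 ES cell markers, among them the pluripotency factor Pou5f1, were at 1 RPKM or more in every library, with sums of 2103 RPKM (TKO+Dnmt3b1) to 3998 RPKM. Dnmt1 was at 71.0 RPKM in WT, between 6.73 and 12.4 RPKM in TKO and its add-backs and between 55.9 and 74.5 RPKM in DKO and its add-backs. Dnmt3a was at 22.7 RPKM in WT, 4.24 RPKM in TKO and 3.63 RPKM in DKO, and at 11.1 to 39.4 RPKM in the libraries with a Dnmt3a isoform put back. With Dnmt3b1 put back instead, it was at 10.2 RPKM in TKO cells, close to the low end of that range, and 6.76 RPKM in DKO cells. Dnmt3b was at 25.03 RPKM in WT and 5.68 RPKM in DKO but at 45.3 RPKM in TKO, above WT and against the direction of that label. It was highest in TKO+Dnmt3b1 at 100.4 RPKM. In DKO cells it was at 29.6 RPKM with Dnmt3b1, 13.3 RPKM with Dnmt3a1 and 14.7 RPKM with Dnmt3a2. A value per gene does not show whether the deleted exons are in the transcript, so that it does not settle the genotype, and TKO stands below for the library labelled so. Markers of other cells were also present, and whether other cells or the ES cells themselves made this RNA was not tested. The 20 fibroblast markers summed to 3892 RPKM in TKO+Dnmt3b1, 2887 RPKM in DKO+Dnmt3b1 and 344 RPKM in DKO+Dnmt3a2, against 686 to 1478 RPKM in the other 8, and no marker was at 0 in any library. The 15 macrophage markers with a row summed to 316, 289 and 12.4 RPKM in the same 3 libraries and to 41.1 to 115 RPKM elsewhere, and 6 of them, Tyrobp included, were at 0 in DKO+Dnmt3a2. The Dnmt3b1 libraries thus stood apart, and for the Zscan4 members comparisons that average over enzymes are given with and without them. Results for the lists of other genes are given with them only.

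Zscan4 transcripts were low in both parent knockout lines, somewhat higher in TKO cells with an enzyme put back, and at or above the WT level in DKO cells with an enzyme put back. Summed over the 5 rows, the level was 19.97 RPKM in WT, 1.32 RPKM in TKO and 1.37 RPKM in DKO. In the TKO add-back libraries it was 2.26 and 8.75 RPKM (TKO+Dnmt3a1), 2.33 and 3.96 RPKM (TKO+Dnmt3a2) and 9.71 RPKM (TKO+Dnmt3b1). In the DKO add-back libraries it was 28.0 RPKM (DKO+Dnmt3a1), 24.2 RPKM (DKO+Dnmt3a2) and 109 RPKM (DKO+Dnmt3b1). The 2 parent lines lay at the bottom, every TKO add-back library lay between them and WT, and every DKO add-back library lay above WT. Expressed against WT, the sum was 6.60% in TKO, 6.85% in DKO, 11.3% to 48.6% over the 5 TKO add-back libraries and 121%, 140% and 546% in DKO+Dnmt3a2, DKO+Dnmt3a1 and DKO+Dnmt3b1.

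Only 2 lines had replicates. The sum was 5.50 ± 4.59 RPKM (SD, n = 2) in TKO+Dnmt3a1, where replicate 2 was 3.87-fold above replicate 1, and 3.14 ± 1.16 RPKM (SD, n = 2) in TKO+Dnmt3a2, where it was 1.70-fold above. These replicate ranges overlapped. In the order of levels, DKO+Dnmt3a1, DKO+Dnmt3a2 and WT lay closer together than the TKO+Dnmt3a1 replicates did, as did WT and TKO+Dnmt3b1, and TKO and DKO. The step from DKO+Dnmt3a1 to DKO+Dnmt3b1 was 3.90-fold, about the size of the gap between the TKO+Dnmt3a1 replicates.

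Zscan4d, the member with the highest values in 10 of the 11 libraries, was at 5.94 RPKM in WT, 0.478 RPKM in TKO and 0.523 RPKM in DKO. It was at 0.799 and 3.86 RPKM in TKO+Dnmt3a1, 0.850 and 1.62 RPKM in TKO+Dnmt3a2 and 3.95 RPKM in TKO+Dnmt3b1. In DKO cells it was at 9.97 RPKM with Dnmt3a1, 8.48 RPKM with Dnmt3a2 and 39.3 RPKM with Dnmt3b1. The TKO and DKO add-back libraries of Zscan4d did not overlap, and WT lay between them.

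Zscan4a, the transcribed pseudogene, led in WT at 6.09 RPKM and came next to Zscan4d in the other 10 libraries. It was at 0.354 RPKM in TKO and 0.401 RPKM in DKO. With an enzyme put back it lay at 0.587, 1.77, 0.653, 1.04 and 2.13 RPKM in the TKO family (Dnmt3a1, Dnmt3a1, Dnmt3a2, Dnmt3a2 and Dnmt3b1). In the DKO family it read 8.09 RPKM with Dnmt3a1, 7.10 RPKM with Dnmt3a2 and 30.0 RPKM with Dnmt3b1. Here too the add-back libraries of the 2 families did not overlap and WT lay between them.

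Zscan4c was at 3.89 RPKM in WT, 0.167 RPKM in TKO and 0.162 RPKM in DKO. Its TKO add-back libraries ran from 0.191 to 1.12 RPKM (median 0.402), and its DKO add-back libraries were at 4.68, 3.85 and 18.0 RPKM with Dnmt3a1, Dnmt3a2 and Dnmt3b1. DKO+Dnmt3a2 was just below WT for this gene. Zscan4f was at 2.38 RPKM in WT, 0.167 RPKM in TKO and 0.147 RPKM in DKO, at 0.218 to 1.24 RPKM in the TKO add-back libraries and at 3.39, 3.16 and 12.9 RPKM in the DKO add-back libraries. Zscan4b, the lowest member in WT, was at 1.67, 0.152 and 0.134 RPKM in the same 3 lines, at 0.322 to 1.27 RPKM in the TKO add-back libraries and at 1.86, 1.66 and 8.86 RPKM in the DKO add-back libraries.

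**Figure D1:**
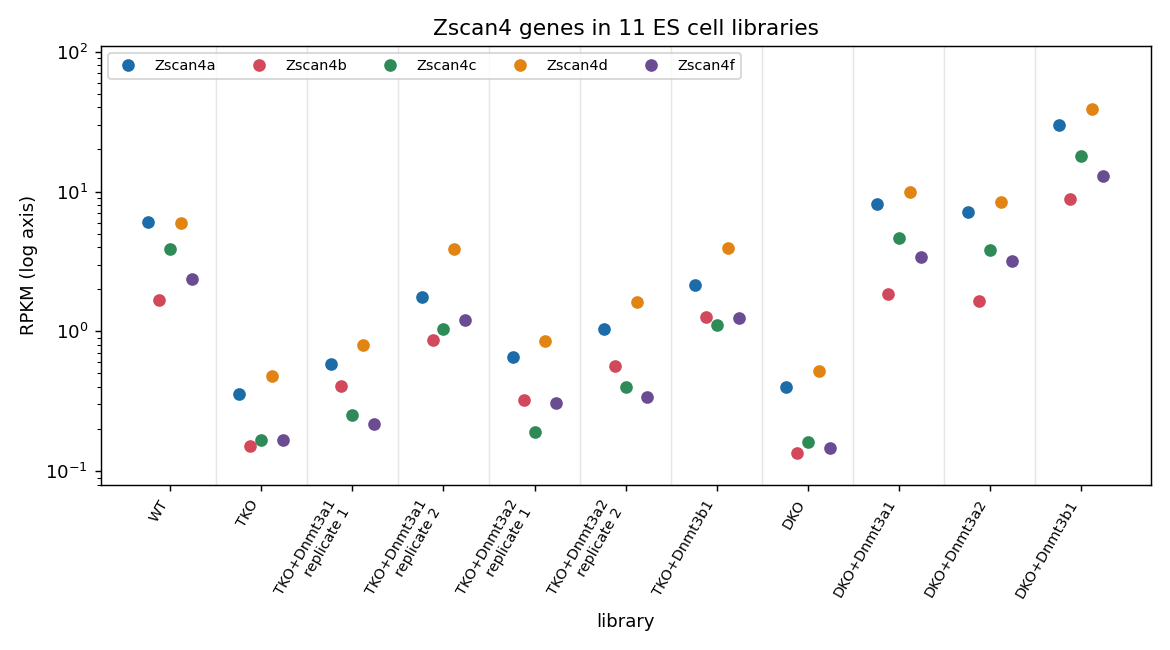
Level of each Zscan4 gene in each of the 11 libraries, in RPKM on a log axis, with 1 point per gene and library. All 5 genes are lowest in TKO or DKO and highest in DKO+Dnmt3b1, where Zscan4d reaches 39.3 RPKM.

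The members moved together. All 5 were highest in DKO+Dnmt3b1 and lowest in TKO or DKO. The correlation of log2 values between any 2 members over the 11 libraries ran from 0.968 to 0.997 (10 pairs), a description that shared reads and shared library depth enter. Zscan4d made up 29.8% to 44.1% of the sum, Zscan4a 20.2% to 30.5%, Zscan4c 8.22% to 19.5%, Zscan4b 6.64% to 17.9% and Zscan4f 8.59% to 13.7%. The share of Zscan4c was 19.5% in WT and 15.9% to 16.7% in the 3 DKO add-back libraries, against 8.22% to 12.7% in the TKO family and DKO. In the parent lines these shares rest on few reads, with an estimated 74 reads over the 5 rows in TKO (7 to 28 per row) and 88 in DKO (7 to 35 per row), against 1415 in WT and 7781 in DKO+Dnmt3b1. For Zscan4c in TKO the exact Poisson interval (95%, counting error only) was 0.081 to 0.311 RPKM, and for DKO it was 0.082 to 0.293 RPKM, so that a difference between the parent lines was not detectable at this depth.

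**Figure D2:**
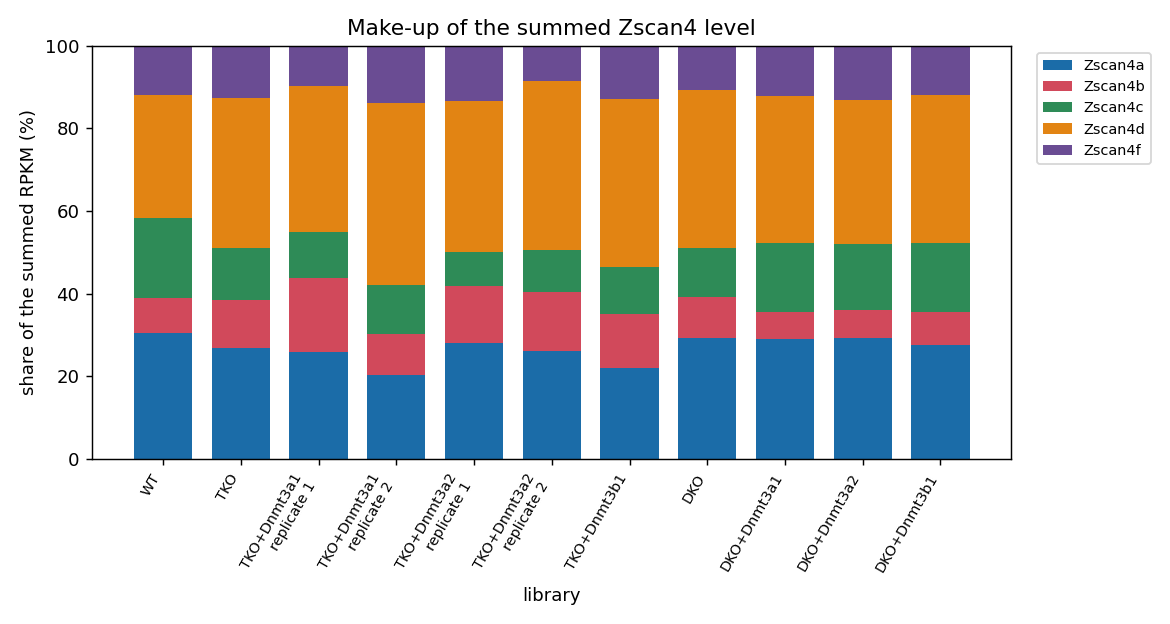
Share of each Zscan4 gene in the summed RPKM of the 5 rows, in percent, with 1 stacked bar per library. Zscan4d is the largest part in every library but WT, where Zscan4a holds 30.5% and Zscan4d 29.8%.

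Loss of the enzymes was examined by setting each parent line beside WT, with 1 library in each arm. The sum was 15.2-fold lower in the library labelled TKO, whose Dnmt3b level goes against its label, and 14.6-fold lower in DKO, and both parent lines lay below WT for all 5 members, which 25.4% of the 14229 genes tested also showed. On the log2(RPKM + 0.5) scale, which understates the change of low genes, TKO minus WT was -2.95 ± 0.56 (SE) for Zscan4a, -2.72 ± 0.83 for Zscan4d, -2.72 for Zscan4c, -2.11 for Zscan4f and -1.73 for Zscan4b. By limma 0 of the 5 passed at a Benjamini-Hochberg adjusted p under 0.05 (adjusted p 0.118 to 0.21), and 5 of 5 had an unadjusted p under 0.05. Of all genes tested 0.344% were called and 2447 had an unadjusted p under 0.05.

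In DKO the differences from WT were of the same size, from -2.87 for Zscan4a to -1.77 for Zscan4b. Limma called 0 of the 5 (adjusted p 0.305 to 0.48, with 5 at an unadjusted p under 0.05) and 0% of all genes (1181 at an unadjusted p under 0.05). Both comparisons share the WT library. The median of all genes was 0.132 in TKO against WT and 0.04 in DKO against WT, on the same log2 scale. The spread behind both tests came from the replicate libraries of TKO+Dnmt3a1 and TKO+Dnmt3a2 alone, and lone libraries were taken to vary like these.

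The 8 add-back libraries were then set against the 2 parent lines, with family as a term and the 3 enzymes averaged. Zscan4d rose by 2.64 ± 0.58 (SE) on the log2 scale, the largest change upward of any gene tested (limma, Benjamini-Hochberg adjusted p = 0.0473). Zscan4a rose by 2.39 ± 0.55 (adjusted p = 0.0495) and Zscan4b by 1.72 ± 0.39 (adjusted p = 0.0486). Zscan4c (2.09 ± 0.56, adjusted p = 0.0641) and Zscan4f (1.96 ± 0.51, adjusted p = 0.0615) were higher and did not pass. The 3 calls of 5 stand beside 3.93% of all genes called in either direction. Every one of the 8 add-back libraries was above both parent lines for all 5 members, which held for 4.71% of genes. The calls rested on the whole set of libraries: without TKO, where the changes were 2.52 to 3.92, 5 members passed (adjusted p 0.0198 to 0.0308), and without DKO or any 1 of the 8 add-back libraries 0 passed. Without DKO the changes were 0.81 to 1.47 (adjusted p 0.285 to 0.423). Without both Dnmt3b1 libraries the changes were 1.19 to 2.04 and 0 members passed (adjusted p 0.147 to 0.2). The summed fibroblast markers of the 8 add-back libraries ran from 344 to 3892 RPKM, and those of the parent lines were 1008 and 1087 RPKM. DKO+Dnmt3a2, with the lowest fibroblast and macrophage sums, held 17.7 times the Zscan4 of DKO. DKO+Dnmt3b1, with a fibroblast sum of 2887 RPKM, held 79.8 times the Zscan4 of DKO. The part of cells with fibroblast or macrophage markers in the result was not tested.

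**Figure D3:**
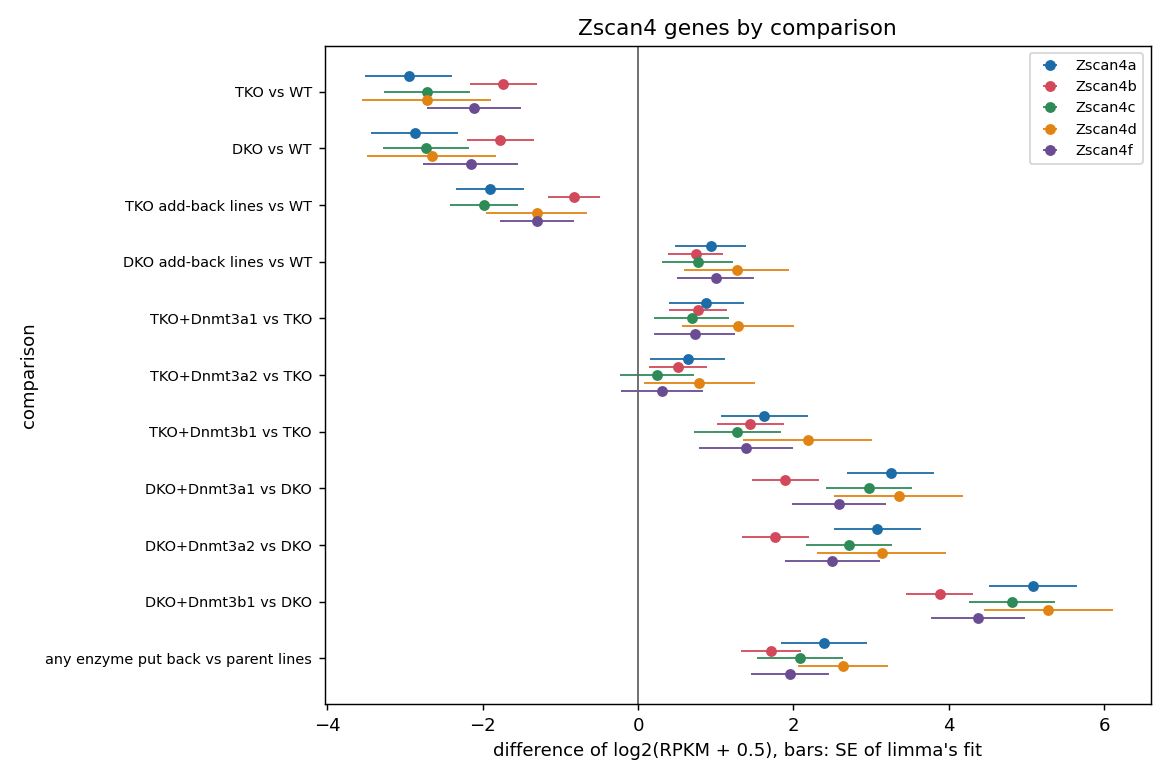
Difference of log2(RPKM + 0.5) for each Zscan4 gene in 11 comparisons, with bars for the SE of limma's fit. Values lie left of 0 for the parent lines and the TKO add-back lines against WT and right of 0 in the other 8 comparisons, with the largest, 5.28 for Zscan4d, in DKO+Dnmt3b1 against DKO.

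Against its own parent, each enzyme line had a higher level of all 5 members. In the DKO family the sum was 20.5-fold the parent's with Dnmt3a1, 17.7-fold with Dnmt3a2 and 79.8-fold with Dnmt3b1. The log2 differences were 1.90 to 3.36 with Dnmt3a1, 1.77 to 3.13 with Dnmt3a2 and 3.88 to 5.28 with Dnmt3b1. Among all genes, Zscan4d had the largest positive difference in DKO+Dnmt3a1. Limma called 0 of the 5 members in each, at adjusted p of 0.235 to 0.27, 0.108 to 0.154 and 0.0701 to 0.0726, and all 5 had an unadjusted p under 0.05 in each. The shares of all genes called were 0.0281%, 0.0281% and 0%, with 2012, 2788 and 3873 genes at an unadjusted p under 0.05. With Dnmt3b1 the call depended on the setting: 3 members passed with a pseudocount of 1, and all 5 passed when genes were kept at a mean of 1 RPKM or more.

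In the TKO family the sum was 1.72-fold and 6.64-fold the parent's in the Dnmt3a1 libraries, 1.76-fold and 3.00-fold in the Dnmt3a2 libraries and 7.37-fold in the Dnmt3b1 library. The log2 differences were 0.69 to 1.28, 0.24 to 0.79 and 1.28 to 2.19. Limma called 0 of the 5 members and 0% of all genes in each comparison, at adjusted p of 0.58 to 0.736, 0.738 to 0.907 and 0.144 to 0.237. Unadjusted p was under 0.05 for 0, 0 and 3 members and for 1369, 1227 and 3318 genes. All comparisons within a family share the parent library.

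The add-back lines of the 2 families differed from each other. With the same enzyme put back, the summed level was 5.08-fold higher in DKO than in TKO cells for Dnmt3a1, 7.72-fold for Dnmt3a2 and 11.2-fold for Dnmt3b1. Every DKO add-back library lay above every TKO add-back library for all 5 members, as it did for 9.54% of all genes. Zscan4a was 2.83 ± 0.30 (SE) higher on the log2 scale in the DKO add-back lines, Zscan4c 2.75 ± 0.29, Zscan4d 2.57 ± 0.44, Zscan4f 2.30 ± 0.32 and Zscan4b 1.56 ± 0.23. All 5 passed (limma, adjusted p 0.0103 to 0.0273), against 11.4% of all genes, whose median difference was -0.11. This comparison was added after the values were seen. Its spread came from the replicates of TKO+Dnmt3a1 and TKO+Dnmt3a2 alone, so that the spread between lines of a family is outside the SE and p. Over the 3 DKO add-back lines Zscan4a ran from 7.10 to 30.0 RPKM. Without both Dnmt3b1 libraries all 5 also passed, at 1.14 to 2.48 (adjusted p 0.0197 to 0.0494). Without DKO+Dnmt3b1 alone it was 3 of 5, at 0.88 to 2.19 (adjusted p 0.0184 to 0.072). Without TKO+Dnmt3a2 replicate 2 it was also 3 of 5, and with no filter on low values 0.

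The difference between families in the response to an enzyme, taken against each family's own parent, was 2.69 ± 0.65 (SE) for Zscan4a, 2.69 ± 0.68 for Zscan4c, 2.45 ± 0.86 for Zscan4d, 2.29 for Zscan4f and 1.53 for Zscan4b, higher in DKO cells for each. Limma called 0 of the 5 (adjusted p 0.212 to 0.321, with 5 at an unadjusted p under 0.05) and 0% of all genes (2079 at an unadjusted p under 0.05). When both Dnmt3b1 libraries were left out the values were 1.18 to 2.4 and 0 members passed (adjusted p 0.239 to 0.336). The fibroblast markers went the other way, with 20 of 20 lower in this contrast and a median of -1.27, and 0 of the 20 passed (limma, 3 at an unadjusted p under 0.05). The families differ by Dnmt1 and by line, which cannot be told apart.

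Beside WT, all 5 members were lower in every TKO add-back library, as were 20% of all genes. The differences were -1.90 ± 0.44 (SE) for Zscan4a, -1.98 ± 0.43 for Zscan4c, -1.30 for Zscan4d, -1.30 for Zscan4f and -0.82 for Zscan4b. Limma called 0 of the 5 (adjusted p 0.0729 to 0.247, with 3 at an unadjusted p under 0.05) and 1.03% of all genes (4005 at an unadjusted p under 0.05). With genes kept at a mean of 1 RPKM or more, 2 members passed. Without TKO+Dnmt3b1 the 5 differences were -2.25 to -1.09 and 0 passed (adjusted p 0.0999 to 0.252). In the DKO add-back lines Zscan4a, Zscan4d and Zscan4f were above WT in all 3 libraries, as were 34.7% of all genes, and the differences over the 5 members were 0.74 to 1.27. Limma called 0 of the 5 (adjusted p 0.244 to 0.323, with 0 at an unadjusted p under 0.05) and 0% of all genes (3530 at an unadjusted p under 0.05). Without DKO+Dnmt3b1 the differences were 0.06 to 0.59 (adjusted p 0.687 to 0.95). Both comparisons share the WT library.

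Dnmt3b1 was compared with the Dnmt3a isoforms over both families. Zscan4b was 1.42 ± 0.40 (SE) higher on the log2 scale with Dnmt3b1 and passed (limma, adjusted p = 0.0383). The other 4 members were 1.39 to 1.64 higher and did not pass (adjusted p 0.0835 to 0.107). The 1 call of 5 stands beside 20.7% of all genes called. The fibroblast markers moved with this contrast: all 20 rose with Dnmt3b1 (median 2.36), from Mmp2 (0.725) to S100a4 (3.18). All 14 tested macrophage markers rose, and 12 of them were called. TKO+Dnmt3b1, with the highest fibroblast sum, held 9.71 RPKM of Zscan4, close to the 8.75 RPKM of TKO+Dnmt3a1 replicate 2, whose fibroblast sum was 927 RPKM. DKO+Dnmt3b1, with a fibroblast sum of 2887 RPKM, held the highest Zscan4 sum at 109 RPKM. The part of cells with fibroblast or macrophage markers in the difference of Zscan4 was not tested. Without DKO+Dnmt3b1 the 5 members were 0.60 to 0.95 higher with Dnmt3b1 and 0 passed (adjusted p 0.342 to 0.624), and without TKO+Dnmt3b1 they were 2.20 to 2.44 higher and 0 passed (adjusted p 0.0794 to 0.195). The call of Zscan4b was lost without each of 8 of the 10 libraries, and all 5 members passed without TKO or without DKO.

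Genes with the most similar pattern were ranked by Pearson's r between their log2(RPKM + 0.5) and that of the summed Zscan4 level over the 11 libraries, among 14224 other genes. The closest were Lgals6 (r = 0.989) and Lgals4 (0.987), which encode galectins, followed by Gm2016 (0.983), Gm8300 (0.983), Gm5662 (0.98), Gm5039 (0.978), Gm2022 (0.975), Gm12794 (0.968), Tcstv3 (0.965) and Gm8994 (0.962). Lgals6 was at 5.48 RPKM in WT, 1.58 RPKM in TKO and 1.84 RPKM in DKO. It was at 1.73, 3.77, 2.19, 2.91 and 4.48 RPKM in the TKO add-back libraries and at 5.42, 5.89 and 12.1 RPKM in the DKO add-back libraries. Its order of libraries was thus close to that of Zscan4 over a smaller range. Tcstv3, a transcript of the 2-cell stage, was at 13.6, 3.30 and 3.22 RPKM in WT, TKO and DKO and reached 65.7 RPKM in DKO+Dnmt3b1. Only 30 genes (0.211%) exceeded r = 0.9, 12 of them from the list of other 2-cell-like genes. Without the 2 libraries farthest from the median, DKO+Dnmt3b1 and TKO, the r of the 10 closest genes was 0.939 to 0.989. The points share library depth, and several of these genes are themselves members of families of close copies.

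The list of other 2-cell-like genes held 32 names, of which 25 were tested. Of the 25, 16 reached 1 RPKM in WT, TKO or DKO, and the other 9 entered the test only through add-back libraries, where a higher level was thus built in. In the add-back lines against the parents the difference was positive for the 16 (median 1.66, against -0.01 over all genes, of which 48.4% were higher). Limma called 3 of these and 5 of the 25, beside 3.93% of all genes. The 3 were Usp17lc (1.78 ± 0.37, SE, adjusted p = 0.0449) and Usp17le (1.55 ± 0.35, adjusted p = 0.0486), which encode deubiquitinases, and the Prame family gene Pramef25 (1.39 ± 0.22, adjusted p = 0.0333). The other two, Tdpoz4 (1.54) and the zinc finger gene Zfp352 (1.39), were under 1 RPKM in WT, TKO and DKO. In TKO 23 of 25 were below WT (median -1.04) and in DKO 24 of 25 (median -1.12), whereas 60.3% and 55.1% of all genes were above WT. Limma called 0 in each (9 and 10 at an unadjusted p under 0.05, beside 2447 and 1181 of all genes). In DKO+Dnmt3b1 against DKO the 16 were higher (median 3.85, against 0.029 over all genes), and limma called 0 of the 25. Unadjusted p was under 0.05 for 24 of the 25, a count that takes in genes with a built-in rise, and for 3873 of the 14229 genes. The summed level of the 31 rows was 68.9 RPKM in WT, 55.6 RPKM in TKO, 19.2 RPKM in DKO and 305 RPKM in DKO+Dnmt3b1. Calcoco2, an autophagy receptor in this list, was at 38.1 RPKM in TKO, against 5.80 RPKM in WT and 6.74 RPKM in DKO. It thus made up most of the TKO sum of the list. The Zscan4 sums of TKO and DKO were 1.32 and 1.37 RPKM.

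Of the regulators of Zscan4, Dux was at 0.165 RPKM in WT, 0.188 RPKM in TKO and 0.132 RPKM in DKO. It was at 0.109 to 0.224 RPKM in the TKO add-back libraries and at 0.333 RPKM in DKO+Dnmt3a1, 0.290 RPKM in DKO+Dnmt3a2 and 1.01 RPKM in DKO+Dnmt3b1. The 3 DKO add-back libraries lay above all others. WT, TKO and DKO, which stood 15.2-fold and 14.6-fold apart in summed Zscan4, all lay within the range of the TKO add-back libraries for Dux. Dux reached 1 RPKM in DKO+Dnmt3b1 only and entered the tests through that library, so that no test of it is given. Over the 11 libraries its r with summed Zscan4 was 0.80 (Spearman's rho 0.718). It was 0.801 without the 2 farthest libraries and 0.728 without DKO+Dnmt3b1 alone.

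Dppa2 and Dppa4, which act upstream of Dux, were expressed throughout. Dppa2 was at 23.4 RPKM in WT, 54.6 RPKM in TKO, 21.0 RPKM in DKO, 42.4 to 65.1 RPKM in the TKO add-back libraries and 49.9 to 66.5 RPKM in the DKO add-back libraries. TKO thus had a high level of Dppa2 with a low level of Zscan4, and the r of Dppa2 with summed Zscan4 was 0.25. Dppa4 lay at 59.5 to 110 RPKM over the 11 libraries (r = -0.33). Trim28, a corepressor that silences retroelements, lay at 305 RPKM in DKO, 366 RPKM in TKO and 409 to 677 RPKM in the others (r = 0.53). Of the 20 tested regulators other than Dux, 14 were higher in the add-back lines than in the parents (median 0.18), as were 48.4% of all genes. The only call was a fall of Smchd1, a chromatin repressor, by 0.56 ± 0.10 (SE, limma, adjusted p = 0.0401). This 1 call of 20 lies near the 3.93% of all genes called and is not read as a result about the regulators.

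**Figure D4:**
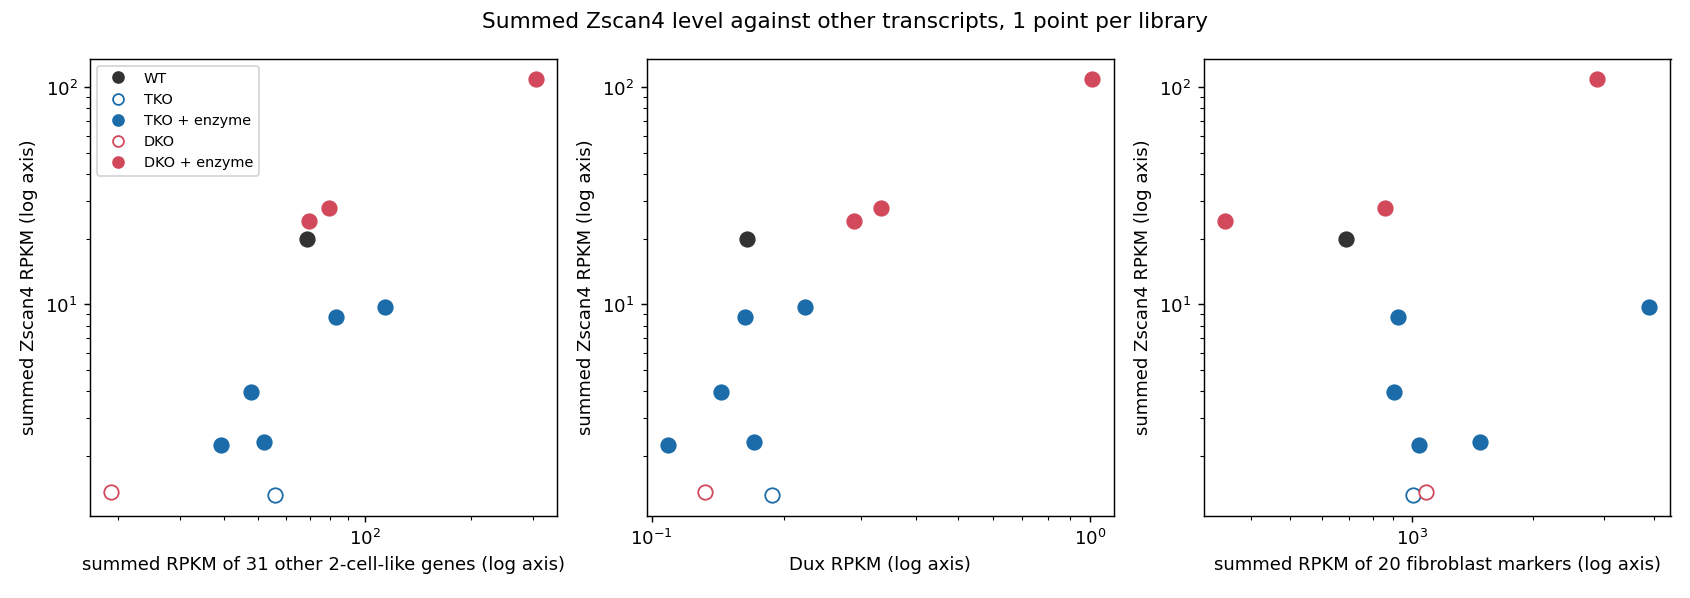
Summed Zscan4 RPKM in each of the 11 libraries against the summed RPKM of 31 other 2-cell-like genes, the RPKM of Dux and the summed RPKM of 20 fibroblast markers, all on log axes. DKO+Dnmt3b1 is highest in the first and second panels, and in the panel of fibroblast markers TKO+Dnmt3b1 lies farthest right at 3892 RPKM with a Zscan4 sum of 9.71 RPKM.

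Genes that act in telomere upkeep, or that share the SCAN domain, were examined the same way. Of 19 tested telomere and recombination genes, 8 were higher and 11 lower in the add-back lines than in the parents (median -0.09), and limma called 0 (7 at an unadjusted p under 0.05). With Dnmt3b1 against the Dnmt3a isoforms 15 of these 19 genes were lower and 4 higher. Limma called 5 of them, all lower, beside 20.7% of all genes called. These were Blm (a helicase, by 0.66), Tert (the telomerase enzyme, by 0.62), Mre11a, Terf1 and Rad50. The summed level of the 20 genes was 387 RPKM in TKO+Dnmt3b1 and 416 RPKM in DKO+Dnmt3b1, against 463 to 494 RPKM elsewhere. The ES cell markers were lower in the same contrast for 10 of 10, with 5 called. In both lists the counts stand beside the fibroblast sums of 3892 and 2887 RPKM in the Dnmt3b1 libraries, and their part was not tested. Of 17 tested zinc finger genes with a SCAN domain outside the cluster, 13 were higher and 4 lower in the add-back lines (median 0.12), and limma called 0 (3 at an unadjusted p under 0.05). Their summed level lay between 126 and 166 RPKM in all 11 libraries, whereas that of Zscan4 ran from 1.32 to 109 RPKM.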

How the data were processed

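PolyA RNA of 11 libraries was made into libraries with a TruSeq v2 kit, which keeps no strand, per the labels' protocols. The submitters' processing notes name the tools bcl2fastq 1.8.4 and STAR 2.4.0 and the build mm9. The authors deposited RPKM values. The counting tool, gene lengths and treatment of shared reads are not given in the sources used here. The table held 0 other per-sample columns.

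The values are not counts, so limma 3.58.1 (lmFit, eBayes with a trend, R 4.3.3) was run on log2(RPKM + 0.5) for the 14229 genes that reached 1 RPKM in any library, with Benjamini-Hochberg adjustment over them. The count test that the design named for counts was not used. Comparisons with WT or with 1 parent line, and of the add-back lines with each other, used 9 group means (2 residual degrees of freedom, prior 3.7). Any enzyme put back and Dnmt3b1 against Dnmt3a used the 10 libraries other than WT with additive terms for family and enzyme (5 degrees of freedom), and the difference between families added a family term for the response (4 degrees of freedom). P-values of the fits of group means reflect only how the replicate libraries of TKO+Dnmt3a1 and TKO+Dnmt3a2 vary. Those of the other fits reflect only how these libraries and lines vary. The fits were tested on simulated data.

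Depth was the lowest total at which most values of transcripts up to 400 nt were whole reads, up to 5 within 0.05 (86.4% to 91.5% of values, where other totals gave a median of 2.0% to 3.5%). Reads per member used GENCODE transcript lengths and are approximate. Sequences are from RefSeq (GRCm38.p6).

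The members, lists and comparisons were chosen with earlier results of these data known. Besides the members, the genes named were at most 5 called genes of each of 4 lists (regulators, other 2-cell-like genes, telomere genes, SCAN relatives), 4 fixed regulators, the 10 genes most like the sum and the marker genes of highest mean. Calcoco2, Tyrobp, S100a4, Mmp2 and the telomere genes were named after their values were seen. Alternatives were other pseudocounts, filters and scalings, libraries left out, a replicate block and each line counted once. The comparison of the add-back lines with each other and its alternatives, the add-back lines against WT without a Dnmt3b1 library, and the split of the 2-cell-like list by where its genes reached 1 RPKM were added after the data were seen.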

Additional observations from a re-analysis of the deposited data

Results flagged for a closer look

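For 3 members, all 5 TKO add-back libraries lay below WT and all 3 DKO add-back libraries lay above it. Of all genes, 20% showed the first part and 34.7% the second, and the share that showed both was not counted. Zscan4a differed from WT by -1.90 in the TKO add-back lines and by 0.93 in the DKO add-back lines, on the log2(RPKM + 0.5) scale. The values were -1.30 and 1.27 for Zscan4d and -1.30 and 1.00 for Zscan4f. Zscan4b and Zscan4c missed this pattern by 1 library, DKO+Dnmt3a2, where Zscan4b was at 1.66 RPKM against 1.67 RPKM in WT and Zscan4c at 3.85 RPKM against 3.89 RPKM. WT had 1 library and enters both differences. The comparison of the add-back lines of the 2 families leaves WT out and was added after the values were seen. For the 3 members the pattern already sets DKO above TKO add-back libraries, so that this comparison adds no separate support. All 5 members passed in it (limma, adjusted p 0.0103 to 0.0273), beside 11.4% of all genes, and 0 passed with no filter on low values.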

How the results depend on the processing

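The summed ratios kept their direction, and moved by less than the 3.87-fold gap between the TKO+Dnmt3a1 replicates, in 84 combinations of ratio with median ratio scaling, quantile normalization or 1 of the 5 rows left out. Taken per replicate, TKO+Dnmt3a1 over TKO was 1.72 and 6.64. The counts of members called moved, and the cause was not tested. For any enzyme put back (3 of 5) the count was 1 with a pseudocount of 1, 0 with no filter on low values, 0 with each line counted once, 0 without both Dnmt3b1 libraries, 0 with 9 group means and 0 to 5 leaving out 1 library. For Dnmt3b1 against Dnmt3a (1 of 5) it was 0 with no filter, 0 with quantile normalization, 0 with each line counted once and 0 to 5 leaving out 1 library. For DKO+Dnmt3b1 against DKO (0 of 5) it was 3 with a pseudocount of 1 and 5 with a mean of 1 RPKM or more, and for the TKO add-back lines against WT it was 2 with that filter. The add-back lines of the families against each other (5 of 5) gave 0 with no filter and 3 to 5 leaving out 1 library, of which 3 without DKO+Dnmt3b1. The difference between families in the response gave 0 in all 18 alternatives run. Without TKO or without DKO it could not be fitted. The share of all genes called with libraries left out is not given here, so that those counts are not read as a result about the members.

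Replicate numbers were shared by TKO+Dnmt3a1 and TKO+Dnmt3a2 only, and the deviations of the 2 lines correlated at 0.086 (2 pairs). So few pairs cannot show whether the numbers mark a shared batch. The summed Zscan4 level was higher in replicate 2 of both lines (3.87-fold and 1.70-fold). With a replicate block the counts were 3 (TKO against WT), 2 (DKO against WT), 2 (TKO+Dnmt3b1), 3 (DKO+Dnmt3a1), 5 (DKO+Dnmt3a2), 5 (DKO+Dnmt3b1), 4 (TKO add-back lines against WT) and 0 (Dnmt3b1 against Dnmt3a). The block left the fits of group means with fewer than their 2 residual degrees of freedom. The share of all genes called under the block is not given here, so these counts are not read as a result about the members. The only reversals among the member values were under this replicate block in TKO+Dnmt3a2 against TKO, at -0.11 for Zscan4c (limma, adjusted p = 0.933) and -0.019 for Zscan4f (adjusted p = 0.992).

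Quantile normalization moved the median of all genes in TKO against WT from 0.132 to -0.02, in the TKO add-back lines against WT from 0.125 to -0.02 and in DKO+Dnmt3a2 against DKO from -0.11 to 0.04, and no member changed direction. In the parent lines, 7 to 35 estimated reads per row limit the precision of single members.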
